A study of Mus musculus with 8 samples.

Results

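The genes described here encode the voltage-gated calcium and sodium channels, the HCN channels and the calcium-release channels of the mouse retina, and they were compared between germ-free mice on a high-fat diet (GF-HFD) and germ-free mice on a normal diet (GF-ND). Members were taken by symbol. They are the Cacna, Cacnb and Cacng genes, the Scn genes whose symbol ends in a number and a or b, the Hcn genes, Ryr1 to Ryr3 and Itpr1 to Itpr3. Of 50 symbols of this form, Cacna1f and Cacna2d4 were left out by the rule and Cacng6, with 9 counts in all, fell under the minimum of 10 counts over the 8 libraries. This left 47 genes of 26900 tested, from 55213 listed. They comprise 9 pore-forming (alpha1), 3 alpha2delta, 4 beta and 7 gamma genes of calcium channels, 10 alpha and 4 beta genes of sodium channels, 4 HCN genes, 3 ryanodine receptors and 3 IP3 receptors.

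All 8 mice were male C57Bl/6 animals kept free of microbes, so that both groups lack a microbiota and differ, as labelled, in diet. The GF-ND group is mice 9, 10, 11 and 12, which stayed on normal food, and the GF-HFD group is mice 13, 15, 16 and 19, which received food with 23% saturated fat. In both groups the diets ran over 8 weeks, from an age of 7 weeks to 15 weeks. RNA came from a whole retina, 1 library per mouse, and each library is a replicate of its diet. Nothing in the labels ties mice to cages or litters, and p-values measure the spread between these mice.

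Voltage-gated calcium and sodium channels open when the membrane is depolarised. A pore-forming alpha subunit carries the current, and accessory subunits set how much channel reaches the membrane and how it gates. Calcium that enters through such channels drives transmitter release at the ribbon synapses of photoreceptors and bipolar cells and at the conventional synapses of amacrine cells, while sodium channels carry the spikes of ganglion cells. HCN channels open on hyperpolarisation and shape the light response of rods and cones. Ryanodine receptors and IP3 receptors lie in the endoplasmic reticulum and release stored calcium, the former in answer to calcium itself or to a coupled membrane channel and the latter in answer to the messenger IP3.

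Promoter sequence was found in the RefSeq table of GRCm38.p6 for 34 of the 47 genes, with 45 start sites. Those of Ryr1, Ryr2, Scn4b and Cacna1e are shown because these genes are among the 6 with an unadjusted p under 0.05 between the diets, described below, and have 1 listed start each. Each sequence runs 5′ to 3′ on the strand of the gene, from 250 bases before to 50 bases after the start. Capitals mark matches, on either strand, to the GC box (GGGCGG), the CCAAT box (CCAAT), the TATA box (TATAAA) and the core sequence bound by the photoreceptor factor CRX (TAATCC).
Ryr1, chr7:29125102-29125401, minus strand: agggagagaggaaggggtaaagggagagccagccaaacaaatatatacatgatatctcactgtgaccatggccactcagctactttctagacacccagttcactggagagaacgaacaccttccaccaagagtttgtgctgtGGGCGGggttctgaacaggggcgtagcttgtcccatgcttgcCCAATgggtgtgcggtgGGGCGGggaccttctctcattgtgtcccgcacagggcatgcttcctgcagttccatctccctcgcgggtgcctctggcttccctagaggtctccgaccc
Ryr2, chr13:12106896-12107195, minus strand: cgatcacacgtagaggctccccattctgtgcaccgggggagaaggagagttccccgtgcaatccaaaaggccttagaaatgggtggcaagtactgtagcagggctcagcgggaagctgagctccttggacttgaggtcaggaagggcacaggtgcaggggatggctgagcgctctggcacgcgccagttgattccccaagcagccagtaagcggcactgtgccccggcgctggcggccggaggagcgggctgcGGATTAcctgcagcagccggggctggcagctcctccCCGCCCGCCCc
Scn4b, chr9:45138374-45138673, plus strand: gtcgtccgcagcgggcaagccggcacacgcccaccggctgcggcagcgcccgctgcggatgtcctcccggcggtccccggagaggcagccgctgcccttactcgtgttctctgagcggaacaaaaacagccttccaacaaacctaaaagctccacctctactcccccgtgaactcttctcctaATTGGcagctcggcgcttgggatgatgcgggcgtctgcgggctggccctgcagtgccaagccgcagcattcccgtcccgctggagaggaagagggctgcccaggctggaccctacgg
Cacna1e, chr1:154725871-154726170, minus strand: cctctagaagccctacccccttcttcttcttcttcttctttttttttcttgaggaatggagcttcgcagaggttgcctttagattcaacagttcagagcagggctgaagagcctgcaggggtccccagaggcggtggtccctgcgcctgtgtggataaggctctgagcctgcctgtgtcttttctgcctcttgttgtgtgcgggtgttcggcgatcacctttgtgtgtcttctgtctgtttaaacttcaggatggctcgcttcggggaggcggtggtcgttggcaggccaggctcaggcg
The window of Ryr1 holds 2 GC boxes and 1 CCAAT box. That of Ryr2 holds 2 overlapping GC boxes and 1 CRX core. The window of Scn4b holds 1 CCAAT box, and that of Cacna1e none of the 4 motifs. Over the 45 channel promoters, 21 held a GC box, 11 a CCAAT box, 5 a CRX core and 2 a TATA box. Of all 32851 promoters in the table, 35.7% held the GC box, 37.4% the CCAAT box, 7.06% the CRX core and 13.6% the TATA box. The channel promoters were rich in G and C, with a median content of 62.0% against 52.7% over all promoters. A match is a match of letters and no record of binding. The listed start of Cacna1e lies inside the gene body that GENCODE annotates.

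The libraries held 39258006 to 44357518 counts, and the channel genes took 0.2525 to 0.2912% of them. Levels are given as CPM, which scales counts to a common library size, after TMM scaling by edgeR, and comparisons between genes are made per kilobase of annotated exon. All 14 rod markers and all 12 bipolar markers were detected in all 8 mice. All 12 pigment epithelium and melanocyte markers were too, so detection alone does not tell retina from adjoining tissue. The lens marker list summed to 72430 CPM in GF-ND mouse 11 and 12110 CPM in GF-HFD mouse 19, and to between 178.9 and 1631 CPM in the other 6 retinas. Because mouse 11 stands apart, values without it stand beside many of the results. Summed rod markers lay between 41450 and 68990 CPM in GF-ND and between 70300 and 90260 CPM in GF-HFD mice, and 14 of 14 had a higher fitted level in GF-HFD retinas. In whole tissue, fewer cells of a type and less RNA per cell cannot be told apart.

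The most abundant channel transcripts per kilobase included several accessory subunits. Cacng7, a gamma subunit that is also known as an auxiliary protein of AMPA receptors, led with 40.0 CPM per kb (SD 3.28 over 8 mice) and made up 10.9 to 13.4% of the summed channel level in single retinas. Cacnb2, the beta subunit of photoreceptor calcium channels, had 17.9 CPM per kb and Cacng4, another gamma subunit, 17.8, and Cacnb2 was the higher of these neighbours in 5 of 8 mice. The sodium channel beta subunit Scn2b had 15.7 CPM per kb and lay above Cacna1h, a pore-forming calcium channel gene, in 6 of 8 mice. Among 46 pairs of neighbours in the ranking, 7 kept their order in all 8 mice.

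Among the 9 pore-forming calcium channel genes of this set, which leaves out Cacna1f, the low-voltage-activated T-type channels led. Cacna1h had 13.6 CPM per kb (SD 2.42), Cacna1g 9.49 (SD 1.42) and Cacna1i 6.06 (SD 0.67), ahead of the N-type channel Cacna1b with 4.68 and the L-type channel Cacna1d with 4.66. Cacna1e, the R-type channel, was the lowest of the 9 at 0.608 CPM per kb. Of the sodium channels, Scn8a (9.62 CPM per kb) and Scn1a (9.60), both axonal channels of central neurons, did not differ beyond their spread, with Scn8a the higher in 3 of 8 mice. Ryr2 led the ryanodine receptors with 3.61 CPM per kb and took 63.5 to 70.2% of their summed level. Itpr1 led the IP3 receptors with 4.25 CPM per kb. At the lower end stood Ryr1 (0.114), the peripheral-neuron sodium channels Scn11a (0.0440) and Scn10a (0.00377) and the muscle gamma subunit Cacng1 (0.0359 CPM per kb). The plot of levels shows that most genes cover a narrow range over the 8 mice and that both diets share it.

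**Figure D1:**
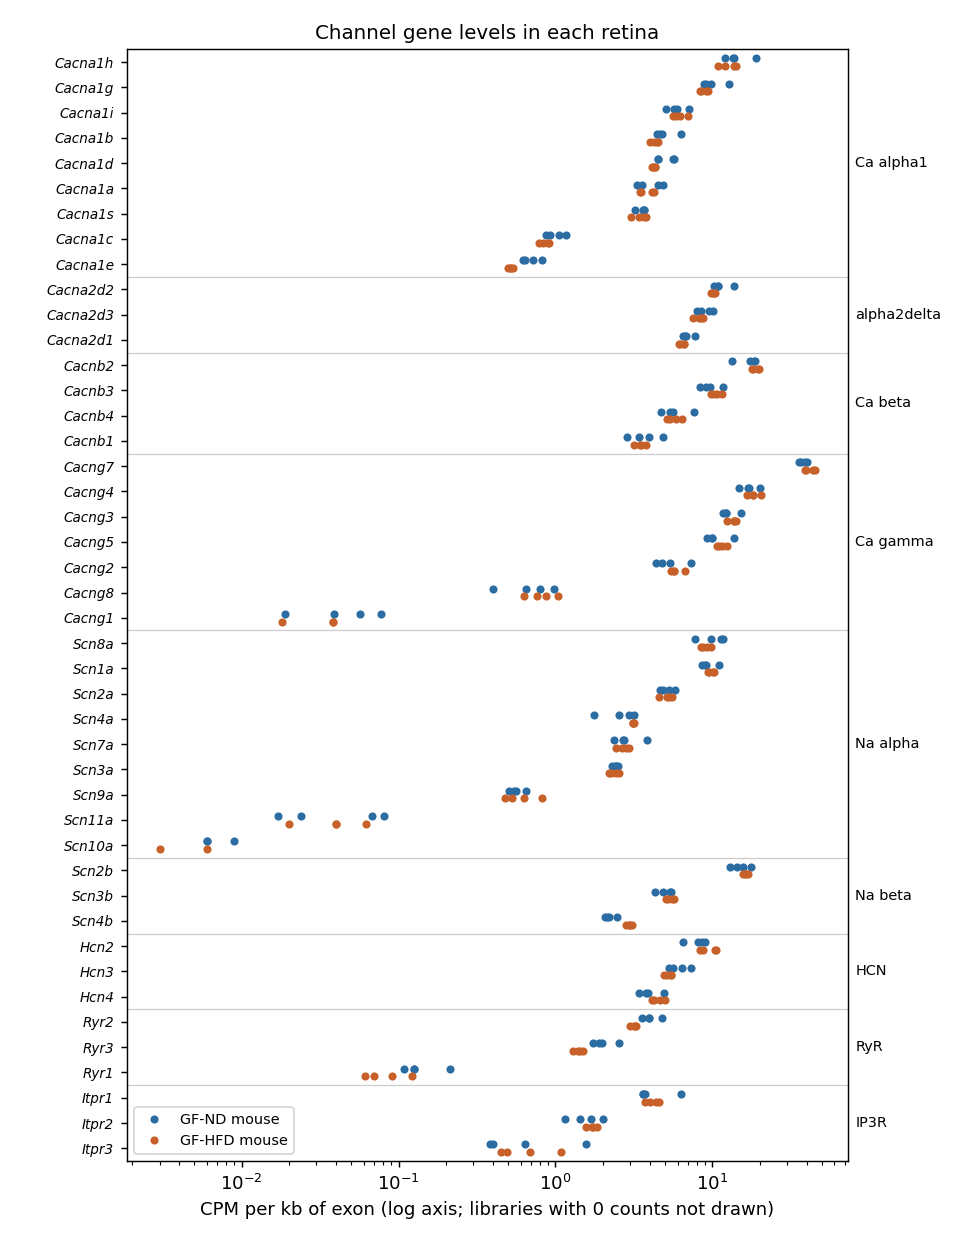
Level of 44 of the channel genes in each retina, as CPM per kilobase of exon on a log axis, with GF-ND mice in blue and GF-HFD mice in orange and genes ordered by mean level within their class. Cacng7 at 40.0 CPM per kb is the highest, and for most genes the blue and orange points overlap, whereas those of Ryr2, Ryr3, Cacna1e, Cacna1d and Scn4b do not.

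Between the diets, the clearest lower levels in GF-HFD retinas were those of the ryanodine receptors Ryr1, Ryr2 and Ryr3 and the calcium channels Cacna1d and Cacna1e, and the clearest higher level was that of the sodium channel beta subunit Scn4b. After Benjamini-Hochberg adjustment over all genes, edgeR called 0 of the 47 (smallest adjusted p = 0.649), and over all genes 0% as well. At an unadjusted p under 0.05, 1 channel gene was higher and 5 were lower, where 2.85% of all genes were higher and 4.53% lower. After adjustment limma-voom also called 0, and DESeq2 called 2, Ryr3 (adjusted p = 0.0314) and Scn4b (adjusted p = 0.04999), where it called 0.197% of all genes. On simulated counts DESeq2 made more false calls than edgeR or limma-voom did, and it also recovered more of the planted differences. Whether either bears on Ryr3 and Scn4b was not tested. None reached the thresholds of the study's methods, an unadjusted p under 0.01 with a log2 fold change beyond 1, which 0.457% of all genes reached. In 5 genes, 1 higher and 4 lower, the 4 values of one diet did not overlap those of the other, against 2.29% of all genes higher and 2.54% lower. Other ways of handling the table gave more lower genes at an unadjusted edgeR p under 0.05. Scaling by library totals gave 8, where 5.51% of all genes were lower. It also gave 8 channel genes with separated groups, where 3.90% of all genes had them. Fitting only genes with 10 CPM in 4 libraries gave 9 of 39 tested, where 6.61% were lower. These 9 were Cacna1b, Cacna1c, Cacna1d, Cacna1e, Cacna2d1, Cacna2d2, Hcn3, Ryr2 and Ryr3. With GF-ND as the baseline, the median fold change was -0.03 on the log2 scale over the 47 genes and -0.03 over all genes, and 26 of the 47 were fitted lower, where 53.7% of all genes were. The plot of fold changes by class shows where the differences lie.

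**Figure D2:**
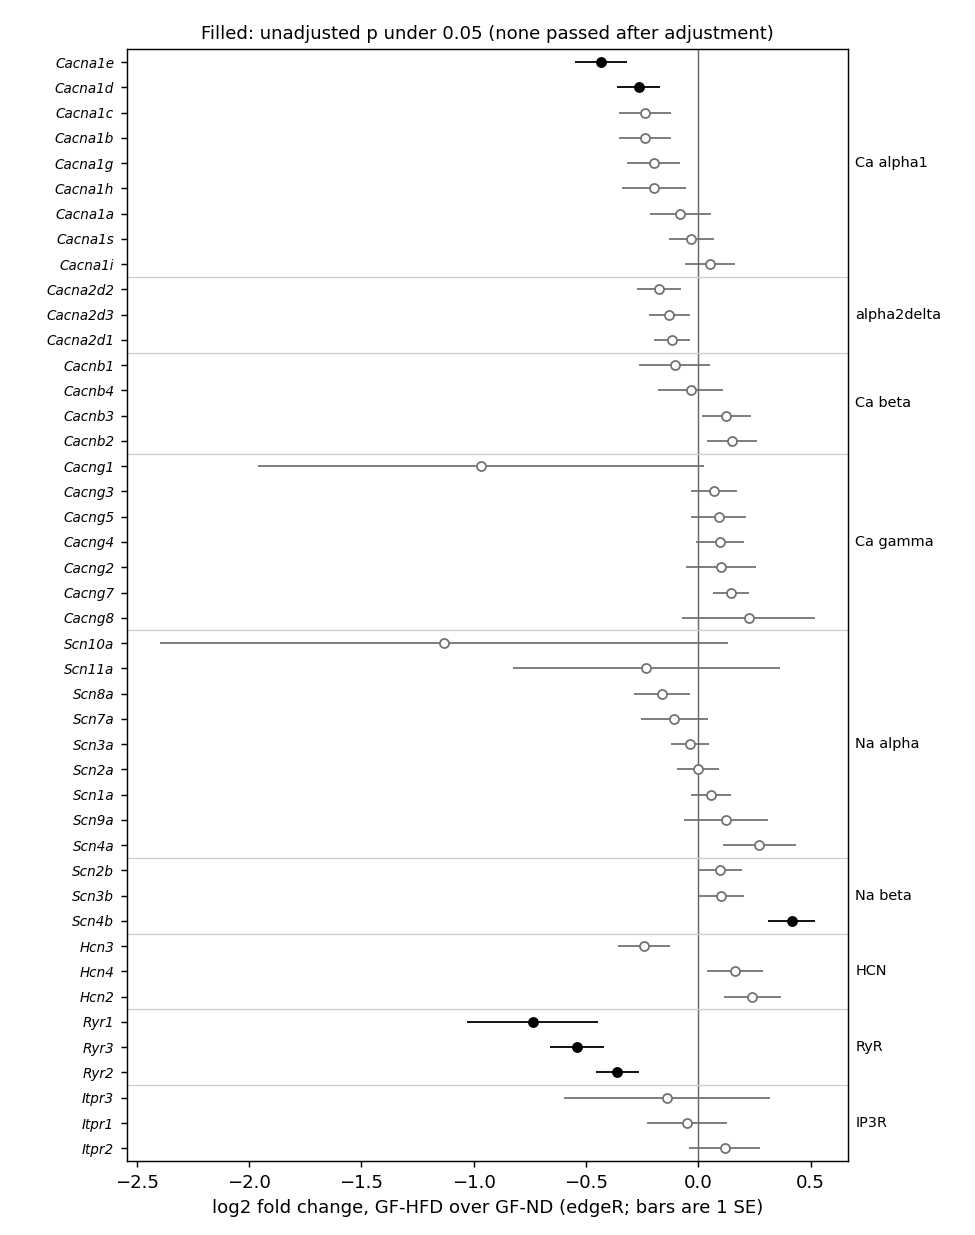
Fitted log2 fold change of 44 channel genes from edgeR, positive where GF-HFD retinas are higher, with bars of 1 standard error, grouped by class, and filled points for an unadjusted p under 0.05. The 3 ryanodine receptors lie at -0.74, -0.54 and -0.36, 8 of 9 alpha1 genes lie below 0, and the 3 sodium channel beta genes drawn lie above 0. The wide bars belong to Scn10a and Cacng1, which have 10 and 15 counts in all.

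Ryr3 (chr2:112631355-113217096, minus strand), a ryanodine receptor of brain and smooth muscle, measured 36.0, 48.2, 33.0 and 37.8 CPM in GF-ND mice 9, 10, 11 and 12 and 28.4, 24.7, 27.1 and 26.5 CPM in GF-HFD mice 13, 15, 16 and 19. Every GF-HFD retina lay under every GF-ND retina, and GF-ND mouse 10 was the highest of all. The means were 38.8 ± 6.60 and 26.7 ± 1.54 CPM (SD over 4 mice per diet), which is -0.54 on the log2 scale (SE 0.12, unadjusted edgeR p = 0.00115, exact permutation p = 0.0286). The exact permutation value is the smallest that 4 mice against 4 allow. Without mouse 10 the log2 fold change was -0.42. Aven overlaps 916 bases of Ryr3 exons on the opposite strand and had a log2 fold change of 0.18 (SE 0.15).

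Ryr2 (chr13:11553102-12106945, minus strand), the ryanodine receptor of heart and neurons, had 113, 138, 102 and 114 CPM in GF-ND and 91.2, 93.1, 93.8 and 85.8 CPM in GF-HFD mice in the same order. Again no GF-HFD value reached a GF-ND value, and mouse 10 was the highest. The means were 116.8 ± 14.9 and 91.0 ± 3.63 CPM (SD over 4 mice per diet), or -0.36 on the log2 scale (SE 0.10, unadjusted edgeR p = 0.00356, exact permutation p = 0.0286), and -0.28 without mouse 10. Ryr2 is the one ryanodine receptor with no annotated exon overlap.

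Ryr1 (chr7:29003344-29125179, minus strand), the release channel of skeletal muscle, was scarce in the retina, with 2.75, 4.63, 2.74 and 2.37 CPM in GF-ND and 2.65, 1.52, 1.99 and 1.32 CPM in GF-HFD mice. The groups overlapped through GF-HFD mouse 13. Its log2 fold change was -0.74 (SE 0.29, unadjusted edgeR p = 0.0303, exact permutation p = 0.0571). The unadjusted edgeR p no longer lay under 0.05 without GF-ND mouse 10 (log2 fold change -0.49), GF-HFD mouse 15 (-0.65) or GF-HFD mouse 19 (-0.60). Summed per kilobase, the 3 ryanodine receptors came to 6.24 ± 0.91 CPM in GF-ND and 4.65 ± 0.17 CPM in GF-HFD mice (SD over 4 retinas). All 3 remained fitted lower under every scaling and with any 1 mouse left out. Summed amacrine markers lay at 1186 to 1678 CPM in GF-ND and 1384 to 1446 CPM in GF-HFD mice, and ganglion cell markers at 829 to 1150 and 1035 to 1171 CPM, with all 12 and all 14 genes of these lists detected in each library. Their part in the result was not tested.

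**Figure D3:**
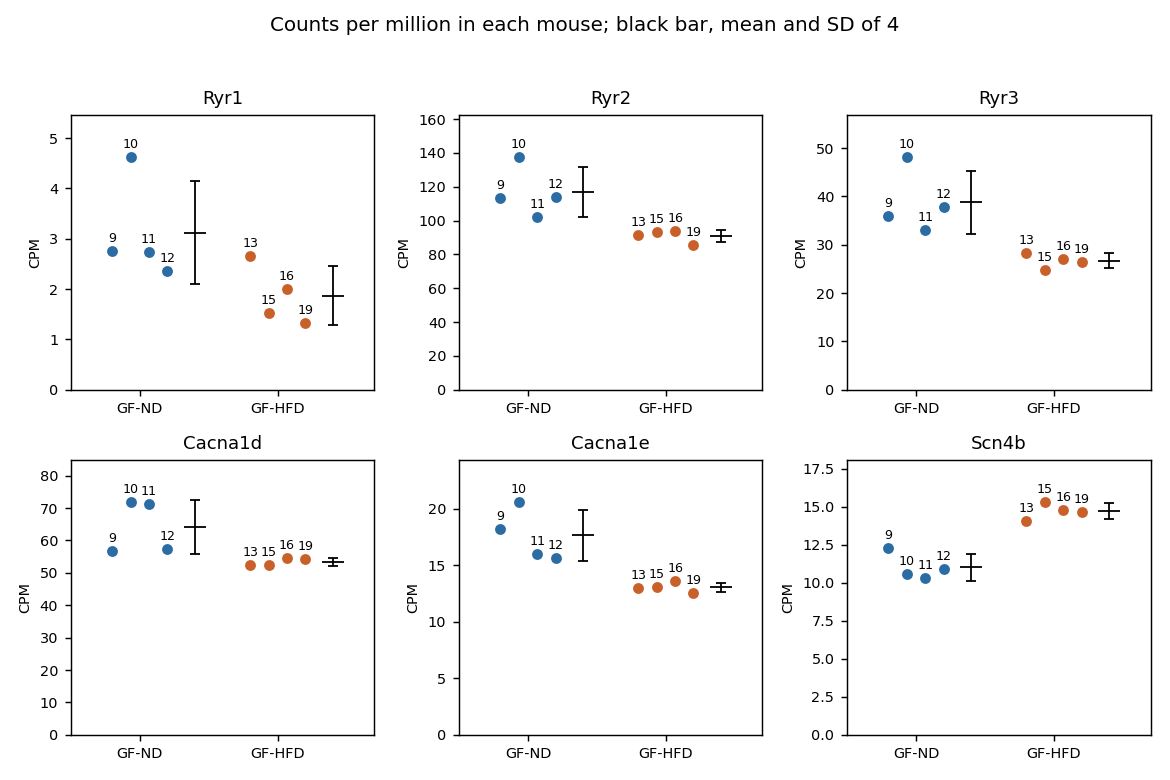
CPM in each mouse for the 6 channel genes with an unadjusted edgeR p under 0.05, with the mouse number over each point and the mean and SD of 4 mice as a black bar. In Ryr2, Ryr3, Cacna1d and Cacna1e every GF-HFD point lies under every GF-ND point, in Scn4b every GF-HFD point lies over them, and in Ryr1 the groups overlap through mouse 13.

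Of the pore-forming calcium channel genes, 8 of 9 were fitted lower in GF-HFD retinas, with a median log2 fold change of -0.20. Cacna1e (chr1:154390731-154884501, minus strand), the R-type channel of dendrites and terminals, measured 18.3, 20.6, 16.04 and 15.7 CPM in GF-ND and 13.01, 13.1, 13.6 and 12.6 CPM in GF-HFD mice. The groups did not overlap, and the 4 GF-HFD retinas lay close together. Its log2 fold change was -0.43 (SE 0.12, unadjusted edgeR p = 0.00367, exact permutation p = 0.0286), and it has no annotated exon overlap. Cacna1d (chr14:30039939-30491455, minus strand), an L-type channel that opens at relatively negative voltages, measured 56.8, 71.9, 71.1 and 57.2 CPM in GF-ND and 52.5, 52.3, 54.7 and 54.2 CPM in GF-HFD mice. The groups stayed apart by a narrow gap, and mice 10 and 11 stood above the rest. Its log2 fold change was -0.27 (SE 0.10, unadjusted edgeR p = 0.0205, exact permutation p = 0.0286), and the unadjusted edgeR p lay above 0.05 without GF-ND mouse 10 (-0.21, p = 0.0540) or GF-HFD mouse 15 (-0.26, p = 0.0504). Exons of Chdh overlap 589 bases of Cacna1d on the opposite strand, and Chdh had a log2 fold change of -0.05 (SE 0.42).

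The other alpha1 genes showed smaller values. Cacna1h, the most abundant of them, had 117.8, 184.4, 132.9 and 133.3 CPM in GF-ND and 134.4, 117.2, 138.6 and 105.8 CPM in GF-HFD mice, so that the groups overlapped throughout (log2 fold change -0.20, SE 0.14, and -0.05 without mouse 10). The N-type channel Cacna1b was at -0.24 (SE 0.11), the L-type channel Cacna1c at -0.24 (SE 0.12), the T-type channel Cacna1g at -0.20 (SE 0.12) and the P/Q-type channel Cacna1a at -0.08 (SE 0.14). Cacna1i was the single alpha1 gene fitted higher, at 0.05 (SE 0.11). GF-ND mouse 10 had the highest level of all 8 retinas in 6 of the 9 alpha1 genes and in 13 of the 47 channel genes, among them all 3 ryanodine receptors. Without mouse 10 the alpha1 median was -0.08, with 8 of 9 still fitted lower, and Cacna1b stood at -0.11 and Cacna1g at -0.07. Without mouse 11, 7 of 9 were fitted lower, with Cacna1a at 0.03 and Cacna1i at 0.15.

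The accessory calcium channel subunits split by type. All 3 alpha2delta genes of this set, which leaves out Cacna2d4, were fitted lower with a median of -0.13. Alpha2delta subunits bring channels to the membrane. Cacna2d2 was both the most abundant and the one furthest from 0, with 81.5, 109.3, 86.0 and 86.0 CPM in GF-ND and 83.1, 79.7, 81.0 and 77.4 CPM in GF-HFD mice. The retina of mouse 10 again set the upper end of its GF-ND range (log2 fold change -0.18, SE 0.10), and without that mouse the log2 fold change was -0.08. Of the beta genes, Cacnb2 measured 231, 244, 177 and 247 CPM in GF-ND and 242, 264, 258 and 236 CPM in GF-HFD mice (log2 fold change 0.15, SE 0.11). Mouse 11 was its lowest retina, and without it the log2 fold change was 0.06 (SE 0.07). The 4 beta genes had a median of 0.05, which ranged from 0.002 without mouse 12 to 0.095 without mouse 11 and turned to -0.01 when only genes with 10 CPM in 4 libraries were fitted. Among the gamma genes, 6 of 7 were fitted higher, with a median of 0.10 that rested on single mice. It was 0.187 without mouse 11, 0.059 without mouse 9, 0.052 without mouse 10, 0.028 without mouse 12 and 0.05 without mouse 13. Cacng7 had 94.8, 87.6, 98.6 and 90.1 CPM in GF-ND and 107.7, 110.8, 94.9 and 96.8 CPM in GF-HFD mice, overlapping through mouse 11 (log2 fold change 0.14, SE 0.08). When genes with 10 or more counts were fitted, 0 of 14 accessory calcium channel genes had an unadjusted edgeR p under 0.05 over all 8 mice. Cacna2d1 and Cacna2d2 did, as lower genes, when only genes with 10 CPM in 4 libraries were fitted.

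Among the sodium channel genes, all 4 accessory beta subunits were fitted higher in GF-HFD retinas. Scn4b (chr9:45138395-45154152, plus strand), the beta subunit tied to resurgent sodium current in fast-spiking neurons, had 12.3, 10.6, 10.3 and 10.9 CPM in GF-ND and 14.1, 15.3, 14.8 and 14.7 CPM in GF-HFD mice. All 4 GF-HFD retinas lay above all 4 GF-ND retinas. The means were 11.03 ± 0.88 and 14.7 ± 0.50 CPM (SD over 4 mice per diet), or 0.42 on the log2 scale (SE 0.11, unadjusted edgeR p = 0.00282, exact permutation p = 0.0286), and leaving out any 1 mouse kept the edgeR p under 0.05. Scn2b and Scn3b both stood at 0.10 (SE 0.10). Without mouse 11 Scn2b was at 0.19 (SE 0.08, unadjusted edgeR p under 0.05), and it was at 0.03 without mouse 12, as Scn3b was without mouse 10. The median of the 4 beta genes was 0.18, and 0.131 to 0.274 with any 1 mouse left out, highest without mouse 11. Rod markers (14 of 14) and ganglion cell markers (14 of 14) were also fitted higher in GF-HFD retinas, with medians of 0.34 and 0.21, and all were detected in each library. Other lists leaned the same way, among them microglia (12 of 12, median 0.34), endothelial (10 of 12, 0.24), astrocyte (5 of 6, 0.17), bipolar (9 of 12, 0.09) and amacrine (9 of 12, 0.08). So did red blood cell (8 of 9, 1.39), fibroblast (10 of 15, 1.37), ciliary body and iris (5 of 6, 0.82) and cone (7 of 10, 0.15) markers. Of horizontal cell markers 3 of 6 were fitted higher, of Schwann cell markers 2 of 8 and of lens markers 0 of 20. The part of these cell types in the higher beta subunit levels was not tested.

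The 10 pore-forming sodium channel genes showed no common direction, with 6 fitted lower, 4 fitted higher and a median of -0.02, which lay between -0.04 and 0.055 with any 1 mouse left out. Scn8a, the main channel of the axon initial segment, measured 153.9, 186, 123 and 178 CPM in GF-ND and 154.5, 147, 134 and 137 CPM in GF-HFD mice. The spread within GF-ND mice covered the whole GF-HFD range (log2 fold change -0.16, SE 0.13, and -0.09 without mouse 10). Scn1a (0.06, SE 0.09), Scn2a (-0.003, SE 0.09) and Scn3a (-0.04, SE 0.08) were close to 0, and their standard errors were among the smallest of the class. Without mouse 11 Scn1a was at 0.15 (SE 0.07, unadjusted edgeR p just under 0.05) and Scn2a at 0.06. Scn10a, a channel of pain-sensing neurons, had 3, 2, 0 and 2 counts in GF-ND and 2, 0, 1 and 0 counts in GF-HFD mice. That is at the limit of what these libraries detect, and no fold is given. Of the 10 alpha genes 0 had an unadjusted edgeR p under 0.05 over all 8 mice.

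The HCN genes did not share a direction. Hcn2, an HCN channel of brain and heart, stood at 27.3, 26.0, 28.8 and 20.7 CPM in GF-ND and 33.3, 27.9, 33.5 and 26.6 CPM in GF-HFD mice. Its 2 highest retinas were of GF-HFD mice, and the groups overlapped (log2 fold change 0.24, SE 0.13, and 0.15 without mouse 12). Hcn4 was also fitted higher (0.16, SE 0.12, and 0.28 without mouse 11). Hcn3, of which 17.12% of the exon length overlaps Pklr on the opposite strand, had 22.1, 30.6, 26.7 and 23.4 CPM in GF-ND and 22.5, 21.3, 20.5 and 22.7 CPM in GF-HFD mice. The groups overlapped through GF-ND mouse 9, and the fitted log2 fold change was -0.24 (SE 0.11), and -0.15 without mouse 10. When genes with 10 or more counts were fitted, no HCN gene had an unadjusted edgeR p under 0.05 over all 8 mice. Hcn3 did when only genes with 10 CPM in 4 libraries were fitted.

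Several members are best known from skeletal or heart muscle, and the retina held most of them at moderate levels. Cacna1s, the voltage sensor of skeletal muscle, had 23.8, 21.2, 24.04 and 23.9 CPM in GF-ND and 24.0, 19.8, 24.9 and 22.3 CPM in GF-HFD mice (log2 fold change -0.03, SE 0.10). Scn4a, the skeletal muscle sodium channel, had 17.9, 20.7, 12.4 and 22.3 CPM in GF-ND and 22.0, 22.0, 22.1 and 22.3 CPM in GF-HFD mice. The GF-HFD values hardly varied, and mouse 11 set the lower end of the GF-ND range (0.27, SE 0.16). Without mouse 11 Scn4a was at 0.13 (SE 0.09). The skeletal muscle marker list summed to 77.7 CPM in GF-HFD mouse 13 and to between 30.22 and 37.34 CPM in the other 7 retinas. In mouse 13 Cacna1s, Scn4a and Ryr1 were within the range of the other retinas, and Cacng1, the gamma subunit of skeletal muscle, had 0 counts there. Its counts were 4, 2, 1 and 3 in GF-ND and 0, 2, 1 and 2 in GF-HFD mice, too few to order the retinas. Of the Cacna1s exons, 19.98% overlap the antisense gene Gm37759.

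Of the genes known from heart, Cacna1c had 19.7, 24.9, 22.3 and 18.5 CPM in GF-ND and 19.3, 17.6, 18.9 and 16.6 CPM in GF-HFD mice. Hcn4, the pacemaker channel, had 23.9, 23.0, 30.2 and 21.0 CPM in GF-ND and 30.4, 28.2, 25.9 and 25.3 CPM in GF-HFD mice. In both the groups overlapped. The heart muscle marker list summed to 6.03 to 8.96 CPM in GF-ND and 6.48 to 7.97 CPM in GF-HFD mice.

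In the IP3 receptors Itpr1 and Itpr3, a single GF-ND retina set the upper end of the levels. Itpr1, the neuronal IP3 receptor, measured 66.3, 68.3, 115.8 and 66.3 CPM in GF-ND and 68.4, 73.6, 80.4 and 83.8 CPM in GF-HFD mice. Apart from mouse 11, all GF-ND values lay under all GF-HFD values, but barely, with 68.26 CPM in mouse 10 and 68.41 CPM in mouse 13. With mouse 11 left out, 20.2% of all genes had groups that did not overlap. Over all 8 mice the log2 fold change of Itpr1 was -0.05 (SE 0.18), and without mouse 11 it was 0.20 (SE 0.08). Its unadjusted edgeR p then lay under 0.05, as it did for 23.0% of all genes. Itpr3, the IP3 receptor of epithelia and secretory cells, had 3.47, 5.81, 14.1 and 3.64 CPM in GF-ND and 4.06, 4.42, 6.20 and 9.81 CPM in GF-HFD mice. Mice 11 and 19, its 2 highest retinas, were also the 2 with the most lens transcripts. They were the top 2 as well for summed Mueller glia, astrocyte, pericyte, Schwann cell, and ciliary body and iris markers. The part of any of these tissues in these levels was not tested. Itpr2, common in glia, was at 0.12 (SE 0.16), and at -0.004 without mouse 11.

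**Figure D4:**
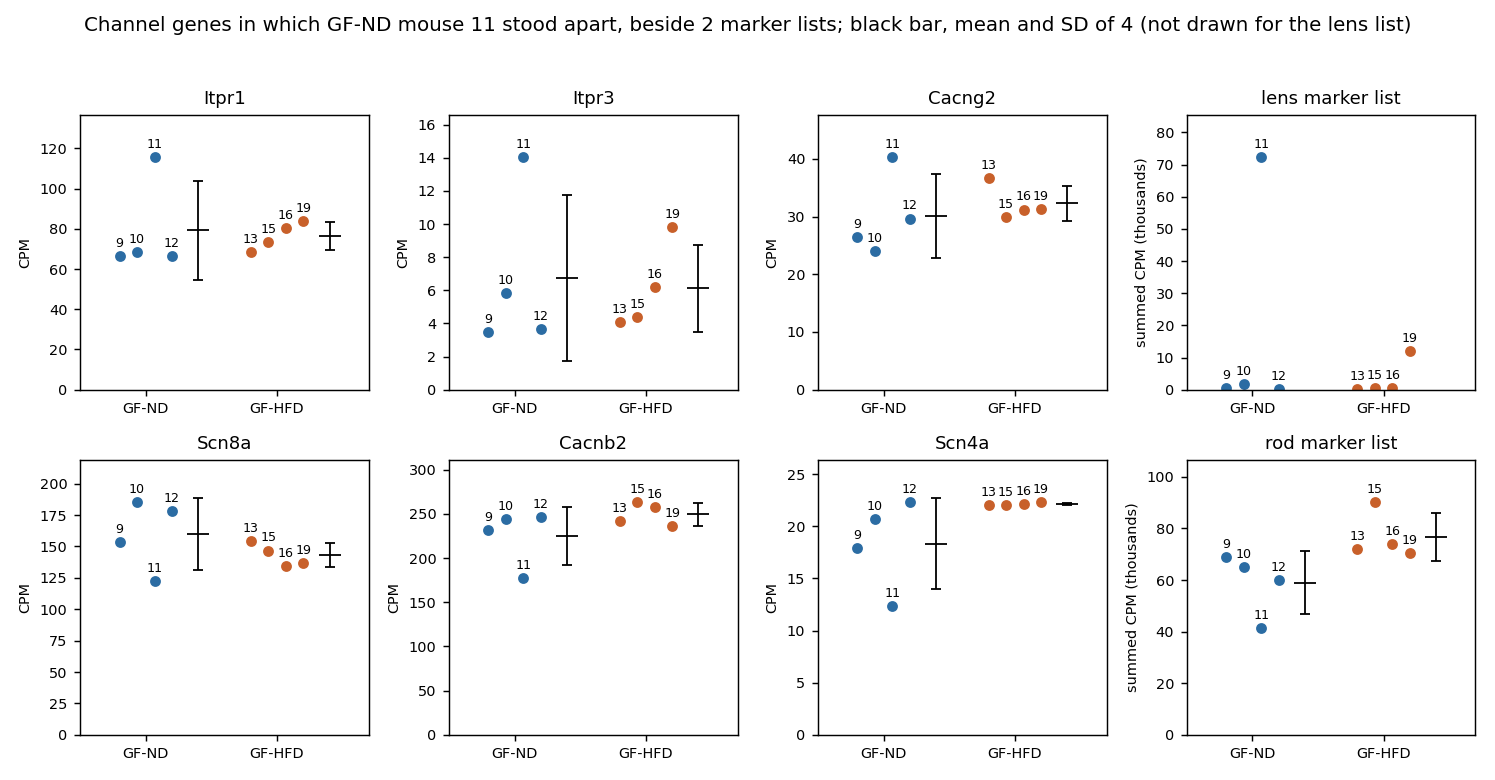
CPM in each mouse for channel genes in which GF-ND mouse 11 is the highest (Itpr1, Itpr3, Cacng2) or the lowest (Scn8a, Cacnb2, Scn4a) retina, beside the summed lens and rod markers in units of 1000 CPM, with mean and SD of 4 mice as black bars except for the lens list. Mouse 11 has 115.8 CPM of Itpr1 where the other GF-ND mice have 66.3 to 68.3 CPM.

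Leaving out mouse 11 changed the overall count. Without it edgeR called 2 channel genes at an adjusted p under 0.05, Ryr3 (log2 fold change -0.60, adjusted p = 0.0281) and Ryr2 (-0.41, adjusted p = 0.0368), where 1.60% of all genes were called. At an unadjusted p under 0.05, 12 channel genes were higher and 7 lower, where 12.1% of all genes were higher and 23.0% were higher or lower, and these 19 included all 6 genes found with every mouse. The groups did not overlap in 15 genes (10 higher and 5 lower), where 20.2% of all genes did not. Genes added on the higher side included Hcn2 (0.30, SE 0.12), Hcn4 (0.28, SE 0.10), Cacng2 (0.28, SE 0.11) and Cacng7 (0.18, SE 0.08), and on the lower side Scn8a (-0.26, SE 0.08) and Cacna1b (-0.26, SE 0.11). The median over the 47 genes was 0.06 without mouse 11. With mouse 19 left out as well, 9 channel genes were higher, against 9.51% of all genes, and 16 had separated groups, against 24.8%. With mice 13 and 16 left out too, which leaves 1 GF-HFD mouse, 3 channel genes were lower, against 6.38% of all genes, and 34 had separated groups, against 59.8%. The plot of both sets of fold changes shows that the ryanodine receptors kept their place and that, of the 42 genes plotted, Itpr3 and Itpr1 moved furthest.

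**Figure D5:**
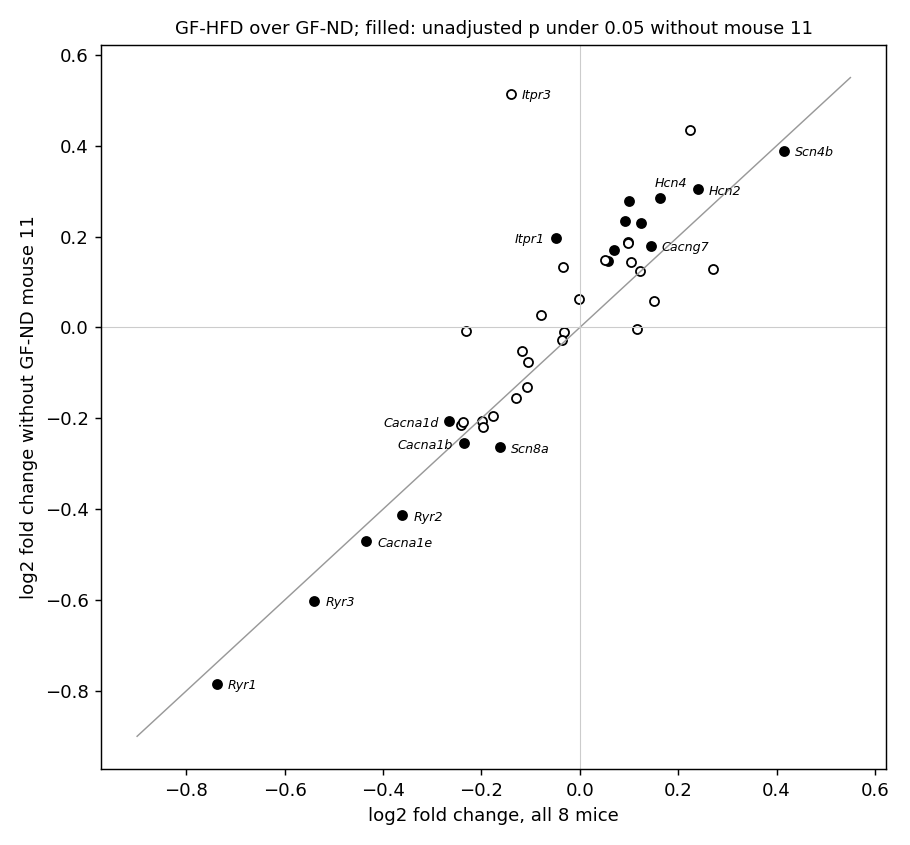
Log2 fold change of 42 channel genes, positive where GF-HFD retinas are higher, over all 8 mice (horizontal) and without GF-ND mouse 11 (vertical), with Scn10a and Cacng1 among those left out, with filled points for an unadjusted edgeR p under 0.05 without mouse 11 and the diagonal as a line. Ryr1, Ryr2, Ryr3 and Cacna1e lie near the diagonal at the lower left, and Itpr1 (-0.05 and 0.20) and Itpr3 (-0.14 and 0.51) lie far above it.

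The channel genes differ greatly in length, and their fold changes were described by the span of the gene. The 11 genes that span over 300 kb, which include Ryr2, Ryr3, Cacna1d and Cacna1e, had a median log2 fold change of -0.13, and 8 were fitted lower. The 22 genes of 50 to 300 kb had a median of -0.06 with 15 lower, and the 14 genes under 50 kb, which include Scn4b, had a median of 0.14 with 11 higher. Across the 47 genes, Pearson's r of log2 span and log2 fold change was -0.23 and Spearman's rho was -0.38. Both include Scn10a and Cacng1, which have 10 and 15 counts in all. These values describe genes within the same 8 libraries, which are not independent, and carry no test.

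Genes whose products work with these channels were taken from lists of channel partners, pumps and exchangers. Of 85 tested, edgeR called 0 after adjustment (smallest adjusted p = 0.649), 59 were fitted higher and 26 lower, and the median log2 fold change was 0.09. At an unadjusted p under 0.05, 6 were higher and 2 lower, against 2.85% and 4.53% of all genes. By list, 14 of 19 calcium channel partners, 4 of 12 sodium channel partners, 1 of 3 HCN partners, 16 of 24 partners of release channels and 11 of 15 genes of store-operated and endolysosomal calcium entry were fitted higher, with 1 gene of all partners on 2 lists. The pumps and exchangers that carry calcium across the membranes of the cell were fitted higher in 13 of 13 genes (median 0.09), but in 8 of 12 without mouse 12 (median 0.05) and in 11 of 12 without mouse 11 (median 0.17). Of the store-operated and endolysosomal genes, 7 of 15 were fitted higher without mouse 12. Of the pumps and exchangers, Slc8a3, a sodium-calcium exchanger, had 86.5, 80.1, 82.4 and 91.2 CPM in GF-ND and 100.0, 103.7, 94.3 and 90.8 CPM in GF-HFD mice (0.19, SE 0.08). The groups overlapped only through mice 12 and 19. Atp2a2, the reticulum pump SERCA2 and the most abundant per kilobase of its list, was at 0.12 (SE 0.08).

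Among the store-operated and endolysosomal genes, Saraf, which turns off store-operated entry, had 118.7, 112.8, 133.5 and 105.3 CPM in GF-ND and 142.0, 142.3, 146.8 and 136.5 CPM in GF-HFD mice (0.27, SE 0.09). It is the 1 of 85 partner genes whose GF-HFD values all lay above GF-ND, where 2.29% of all genes did. Tpcn2, a channel of lysosomes, is the 1 that lay wholly under, where 2.54% of all genes did. Tpcn2 had 3.76, 6.28, 4.67 and 4.98 CPM in GF-ND and 2.89, 2.52, 3.41 and 3.05 CPM in GF-HFD mice (-0.73, SE 0.20). Orai2, a pore of store-operated entry, was at 0.22 (SE 0.09). For the calcium channel partners, Erc2, a protein of the active zone, was at 0.23 (SE 0.10), and Stac, an adaptor of muscle-type channels, at 1.58 (SE 0.59). The high Stac level belonged to GF-HFD mice 16 (5.56 CPM) and 19 (4.78 CPM), where the other 6 retinas had 0.645 to 1.33 CPM, and 11.31% of its exons overlap Gm43236.

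Kcne2, an accessory subunit of potassium and HCN channels, was at 0.25 (SE 0.10), with 46.2 to 58.7 CPM in GF-ND and 57.1 to 65.7 CPM in GF-HFD mice. Casq1, the calcium buffer of the muscle reticulum, was at -1.06 (SE 0.47), and 1 retina, that of GF-ND mouse 11 with 10.8 CPM, lay far above the other 7 (1.74 to 3.57 CPM). Without mouse 11 Casq1 was at -0.30 (SE 0.25), with an unadjusted edgeR p above 0.05. The most abundant partners per kilobase included Calb2 (calretinin, 0.17, SE 0.12), Pex5l, which controls HCN trafficking (-0.05, SE 0.17), and the axonal adhesion protein Nfasc (-0.15, SE 0.15). Without mouse 11 they stood at 0.27, -0.19 and -0.28 in this order. Without mouse 11, 28 partner genes were higher and 4 lower at an unadjusted p under 0.05, where 12.1% of all genes were higher and 23.0% were higher or lower.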

How the data were processed

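RNA of whole retinas was sequenced as 100-bp read pairs. Per the labels and the methods of the study, alignment to GRCm38 (mm10) used STAR 2.4.2 and counting used featureCounts from the Subread package (1.4.6-p1). The values that the authors deposited are raw counts under gene symbols, 1 table for each of 8 libraries. No strand setting is given in the sources used here, so counts of overlapping genes are uncertain. Low counts were mostly even (1.91 to 2.36 even values for each odd one between 1 and 12), so counting error is larger than independent counts would give.

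The 26900 genes whose counts summed to 10 or more were fitted with edgeR 4.0.16 in R 4.3.3 (TMM factors, quasi-likelihood test, diet as the sole term, Benjamini-Hochberg over all genes tested). Standard errors are the log2 fold change divided by the square root of F. CPM are TMM-scaled, and log2 CPM used a prior count of 2. Single genes were also tested by a two-sided exact permutation test over 70 arrangements of the mice. limma 3.58.1 (voom) and DESeq2 1.42.0 were alternatives, with other scalings, filters and mice left out. The tests were tried on simulated data. Positions, exon lengths and overlaps come from GENCODE vM21, and promoters from RefSeq.

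Given mouse by mouse are genes with an unadjusted p under 0.05 or separated groups, the most abundant member and the one with the largest fitted fold change of each class, and the muscle and heart isoforms. Results of a few genes are not reported here by name and are not drawn, while counts and medians cover all genes tested. Partner genes are named where the unadjusted p was under 0.05 or the level was the highest of a list. The channel genes, partner lists and marker lists were chosen with earlier results of these data known. Markers were used for rod, cone, bipolar, amacrine, horizontal, ganglion cell, Mueller glia, astrocyte, microglia and endothelial lists. Lists for lens, pigment epithelium, pericyte, Schwann cell, ciliary body and iris, fibroblast, red blood cell, skeletal and heart muscle were used too.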

Additional observations from a re-analysis of the deposited data

Results flagged for a closer look

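In 3 of 94 groups of 4 mice (47 genes in 2 diets), 1 mouse stood apart by Dixon's test, which divides the gap to the nearest value by the range. Chance alone flags about 1 in 20 such groups. Itpr1 stood apart in GF-ND mouse 11 with 115.8 CPM, where the other 3 had 66.25 to 68.26 CPM (ratio 0.946). In the same mouse Cacng3, a gamma subunit of AMPA receptor complexes, had 42.55 CPM, where the other 3 had 32.58 to 33.94 CPM (ratio 0.847). Cacna1s stood apart in GF-ND mouse 10 with 21.2 CPM, where the other 3 had 23.79 to 24.04 CPM (ratio 0.918).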

How the results depend on the processing

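Over 19 alternatives, the 0 channel genes at the thresholds of the study's methods stayed at 0, and the signs of all class medians held under each other scaling (library totals, RLE, upper quartile). Library totals gave 8 channel genes lower at an unadjusted p under 0.05 and 8 with separated groups (3.90% of all genes), and fitting genes with 10 CPM in 4 libraries gave 9 lower, of 39 tested. DESeq2 called 2 after adjustment. With 1 mouse left out at a time, channel genes ranged from 0 to 2 at an adjusted p under 0.05, from 1 to 12 higher and from 3 to 7 lower at an unadjusted p, from 5 to 15 with separated groups, and from -0.045 to 0.057 in median log2 fold change. The highest values came without mouse 11, where Itpr1 turned to 0.198 (its lowest value, -0.125, came without mouse 9), and the 3 lower genes without mouse 10 or mouse 15. Without mice 11 and 19, 9 were higher, 16 had separated groups and the median was 0.069. Without mice 11, 13, 16 and 19, a single GF-HFD mouse is left and assumed to vary like the others, and 3 were lower and 34 separated, where 6.38% of all genes were lower and 59.8% separated. The causes were not tested.

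Partner genes, whose alternatives were added after the data were seen, ranged from 3 to 28 higher and from 1 to 4 lower with 1 mouse left out. The 28 came without mouse 11, where 12.1% of all genes were higher. Library totals gave 2 higher and 4 lower, where 5.51% of all genes were lower. Upper-quartile factors gave 2 higher, no filter 3 higher and 4 lower, and 10 CPM in 4 libraries 1 higher. DESeq2 gave 4 lower and limma-voom 1 lower. Without mice 11 and 19, 25 were higher, where 9.51% of all genes were, and 4 were lower. For the other settings no share of all genes is given, so their counts are not read as results about the partners. No paired analysis was possible because the groups share no mouse numbers. Depth limits Scn10a, Scn11a and Cacng1, with 10, 88 and 15 counts in all.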
